A study of Mus musculus with 8 samples.

Results

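The genes described here encode the parts of the lysosome that make it acidic, digest protein inside it and line its membrane: the subunits of the proton pump, the cathepsin proteases and the LAMP glycoproteins. They were chosen by gene symbol, as the rows of the expression table whose symbols begin with Atp6v0 or Atp6v1, consist of Cts and one further letter, or begin with Lamp and a digit. Ctsc was left out. The choice gave 36 of the 24547 genes in the table, of which 10 belong to the V1 domain of the pump by symbol, 10 to its V0 domain, 14 to the cathepsins and 2 to the LAMP proteins.

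The lysosomal pump, or V-ATPase, is a rotary machine. Its V1 domain hydrolyses ATP on the cytosolic side, and its V0 domain carries protons through the membrane. The low pH it creates activates the cathepsins, which reach the lysosome as inactive precursors and break down protein delivered by endocytosis and autophagy. In liver this work is done by hepatocytes and, at high rate, by Kupffer cells, the resident macrophages. Many genes of the pathway carry an E-box type promoter element read by the transcription factor TFEB and its relatives.

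Liver RNA from ICR mice, an outbred strain, was sequenced in 2 groups of 4 libraries. The treated group (SPHD in the labels) had received Psoraleae Fructus, the fruit of Psoralea corylifolia, as a decoction at the high dose. The control group is labelled Con, and the labels name saline as the other substance given. Both were given into the stomach over 30 days. Mass dosed, sex, age and batch are not stated in the sources used here. Nor are separate animals stated for the libraries, so each p-value measures a spread between libraries that may be technical. The treated libraries held 16398729 to 20159132 counts and the control libraries 15864399 to 19153845. Defining hepatocyte genes were abundant in all 8 libraries: the summed level of 10 such genes, from Alb to Trf, was 74930 to 79860 FPKM in treated libraries and 63810 to 79670 FPKM in controls, and none of the 10 was called by edgeR (1 at an unadjusted p under 0.05) or by DESeq2 or limma-voom. Control 2 stood apart by its leukocyte genes, and leaving out control 4 raised the number of called genes most, and the counts of calls are given below without each of them.

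Promoter sequence was available in RefSeq's table on GRCm38.p6 for 25 of the 36 genes, with 29 promoters of 300 bases, each reaching 250 bases before a transcript start and 50 after it. The letters TCACGTG, the longer form of the E-box core CACGTG that it contains, were searched on both strands because they form part of the element bound by TFEB. They stood in 7 of the 29 promoters (24.1%), against 5.87% of the 12643 promoters of all genes tested and 3.77% of all 32851 promoters. The shorter core stood in 9 of the 29, these 7 included (31.0%), against 9.82% of the promoters of tested genes and 7.15% of all. The 7 stretches that hold the longer letters are printed because the choice by symbol did not use them. The letters were found in 7 of the 25 genes with a promoter (28.0%), so most of these genes lacked them there. Capitals mark the matched letters, and where 8 letters are in capitals the matches on both strands overlap. Each is read along the strand of its gene, and the capitals lie close to the transcript start in all but Atp6v1a and Ctsd.
Atp6v1a: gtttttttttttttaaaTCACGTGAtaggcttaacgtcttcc
Atp6v0b: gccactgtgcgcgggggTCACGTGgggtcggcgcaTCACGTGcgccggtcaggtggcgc
Atp6v0d1: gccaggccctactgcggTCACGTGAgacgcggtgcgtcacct
Atp6v0e: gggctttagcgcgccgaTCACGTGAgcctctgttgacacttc
Ctsa: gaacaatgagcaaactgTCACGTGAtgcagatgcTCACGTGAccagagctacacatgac
Ctsd: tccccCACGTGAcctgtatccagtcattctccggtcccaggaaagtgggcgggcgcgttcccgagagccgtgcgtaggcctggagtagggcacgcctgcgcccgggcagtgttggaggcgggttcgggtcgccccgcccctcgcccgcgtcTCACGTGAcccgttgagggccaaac
Lamp1: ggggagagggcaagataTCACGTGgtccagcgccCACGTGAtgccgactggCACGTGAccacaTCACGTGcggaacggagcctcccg
The Lamp1 stretch, at chr8:13159082-13159168 on the plus strand, holds 4 separate matches within 62 bases before the start. The stretches of Ctsa (chr2:164833743-164833801, plus strand), Atp6v0b (chr4:117887325-117887383, minus strand) and Ctsd (chr7:142387902-142388077, minus strand) hold 2 each. Those of Atp6v1a (chr16:44139367-44139408, minus strand), Atp6v0d1 (chr8:105566044-105566085, minus strand) and Atp6v0e (chr17:26676381-26676422, plus strand) hold 1 each. The promoter of Atp6v1f, the pump gene called below, does not hold these letters. With all 8 libraries edgeR called none of the 7 genes with the longer letters, where 9.21% of all genes tested were called. Of the 7, Atp6v0b was called by limma-voom (adjusted p = 0.0394) and by edgeR without control 4 (adjusted p = 0.0402). These settings called 16.2% and 17.8% of all genes. The part of TFEB in any of these values was not tested.

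One further sequence bears on how a value can be read. Atp6v0c-ps2 matches the symbol rule but is annotated as a processed pseudogene, an intronless copy of the gene for the c subunit, which forms the proton-carrying ring of V0. Its 465 bases on chromosome 6 align to the coding sequence of Atp6v0c on chromosome 17, 468 bases with the stop codon, with 1 mismatch (99.8% identity), and lack its last 3 bases. Bases 81 to 140 of both, counted from 1 at the first base of the start codon, are printed with the mismatch, T111C, in capitals.
Atp6v0c: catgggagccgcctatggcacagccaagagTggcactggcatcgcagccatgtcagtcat
Atp6v0c-ps2: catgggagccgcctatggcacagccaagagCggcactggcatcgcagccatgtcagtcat
The Atp6v0c stretch lies at chr17:24164822-24164881 on the minus strand and that of the pseudogene at chr6:37806166-37806225 on the plus strand of GRCm38. Reads from the coding part of the 2 genes can therefore hardly be told apart, and the levels of both are uncertain.

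Of the 36 genes, 31 passed the filter on low counts and entered the test across 12861 genes. A gene was called at an adjusted p under 0.05 in edgeR's quasi-likelihood test. 3 of the 31 were called (9.68%): Atp6v1f and Ctsh were higher and Ctsw was lower in treated livers. Among all genes tested 9.21% were called, 5.46% higher and 3.75% lower, so the share called by this test among the lysosomal genes was near the background. At an unadjusted p under 0.05 stood 13 of the 31 (41.94%), 7 higher and 6 lower, where 29.4% of all genes did. The CPM values (counts scaled to depth with TMM factors) of the groups did not overlap for 5 of the 31, 4 higher and 1 lower in treated libraries, where 18.9% of all genes showed no overlap, 10.2% higher and 8.7% lower. DESeq2 and limma-voom each called 7 of the 31, beside 17.2% and 16.2% of all genes. Without control 2 edgeR called 1 of the 31, beside 4.49% of all genes. Without control 4 it called 8 of 32 tested, beside 17.8%, and without controls 2 and 4 together 3 of 32, beside 8.07%. The median log2 fold change was -0.02 over the 31 genes and -0.04 over all genes tested, and 22 of the 31 lay within 0.5 of 0. The family medians were also close to 0, at -0.01 for 9 V1 genes, -0.05 for 9 V0 genes, -0.02 for 11 cathepsins and -0.08 for the 2 LAMP genes. The signs of medians this near 0 turned under several alternatives, such as the correction for gene length and GC content for V1 and LAMP, limma-voom for V0 and leaving out control 2 for V1.

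**Figure D1:**
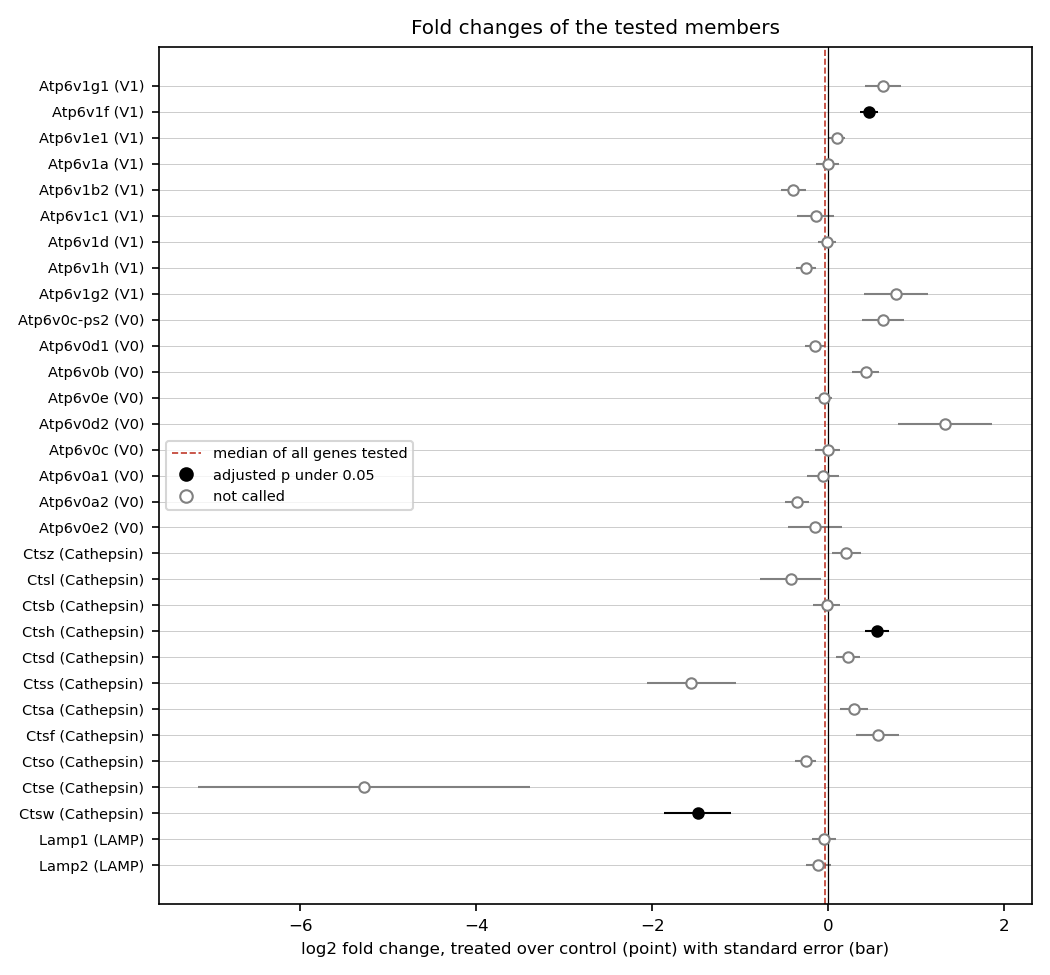
Log2 fold change of the 31 tested lysosomal genes, treated over control (horizontal axis), as points with the standard error as bars, grouped by family from V1 at the top to LAMP at the bottom. Filled points are the 3 called genes, and the dashed line is the median of all 12861 genes tested. Most points lie near 0, and Ctse, at -5.27, has the widest bar.

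The 5 untested genes were nearly silent in all 8 libraries. Ctsk, a collagenase of osteoclasts, had 51 reads in all, and Ctsj, a placental cathepsin of rodents, had 4. Ctsg, a serine protease of neutrophil granules, had 0 reads in every treated library, against 0, 1, 3 and 2 in controls 1 to 4, and a count of 0 allows up to 3 reads per library. Atp6v0a4, the a subunit isoform of kidney and inner ear, had 12 reads. Atp6v1fnb had 0, and is by its name the neighbour of Atp6v1f and not a pump subunit.

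**Figure D2:**
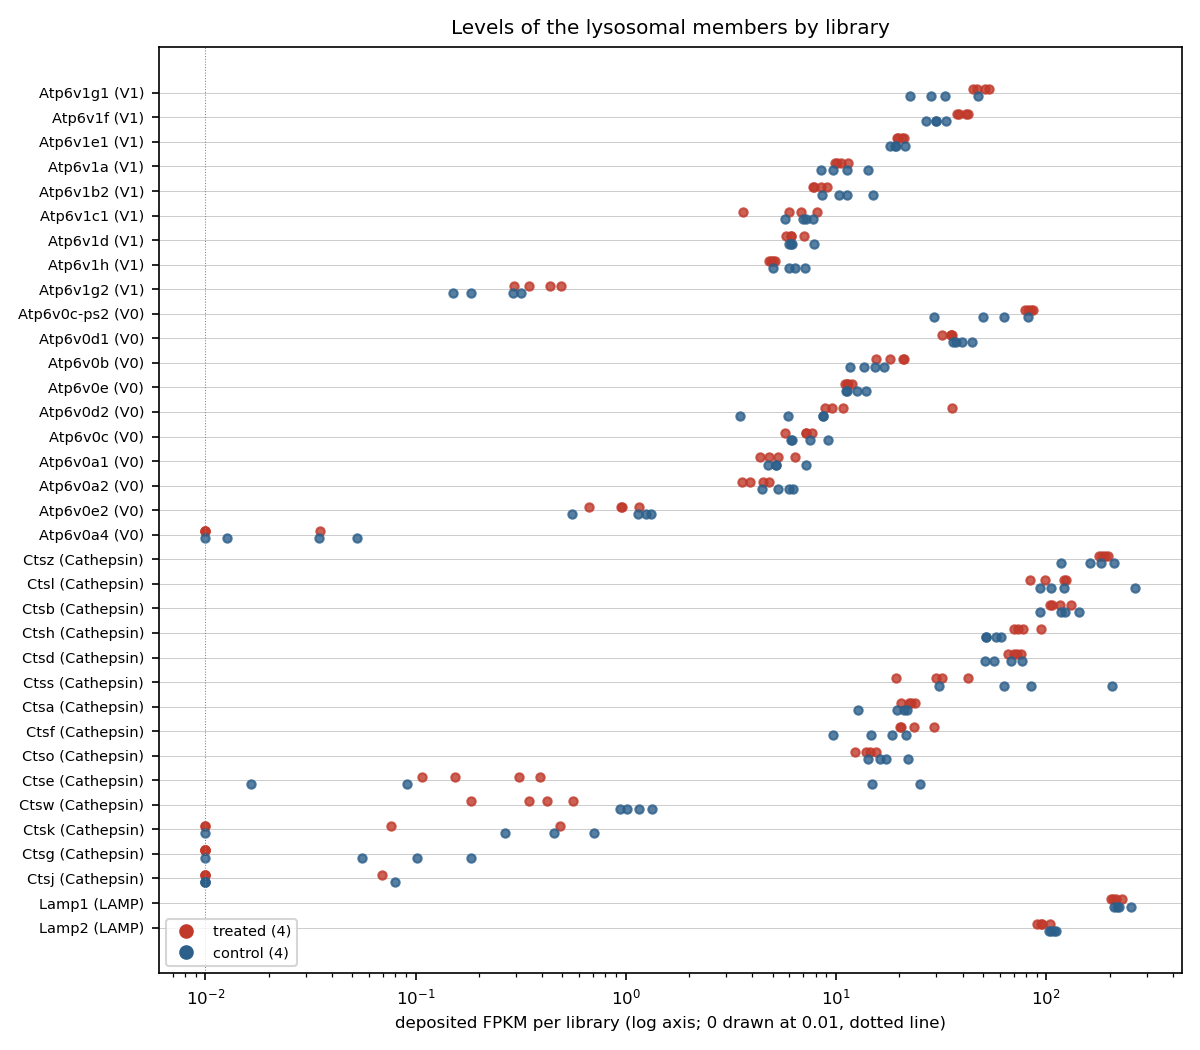
Deposited FPKM (horizontal log axis) of 35 of the lysosomal genes in each of the 4 treated and 4 control libraries, one row per gene, ordered within each family by mean level. A value of 0 is drawn at 0.01, and Atp6v1fnb, at 0 throughout, is not drawn. Lamp1 stands highest, and the groups separate for few genes.

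In the V1 domain, which hydrolyses ATP, 1 of 9 tested genes was called, beside 9.21% of all genes tested. Atp6v1f (ENSMUSG00000004285, chromosome 6, 29467718 to 29470512) encodes subunit F, part of the central rotor stalk. It measured 40.2, 43.5, 47.3 and 41.9 CPM in treated 1 to 4, against 33.1, 32.0, 28.4 and 31.9 CPM in controls 1 to 4. Every treated library lay above every control, and the means were 43.2 ± 3.02 and 31.4 ± 2.07 CPM (SD, n = 4 each). The log2 fold change was 0.46 (SE 0.10, edgeR adjusted p = 0.0262), which is a 1.38-fold higher level. The call was kept in 4 of the 8 fits that left out one library, and was lost without treated 2, 3 or 4 or control 3 (adjusted p 0.0219 to 0.0879 over the 8). After correction for gene length and GC content its log2 fold change was 0.15 (edgeR adjusted p = 0.363). The transcript is short, at 1063 bases in the table, and over all genes tested the fold changes ran with GC content (Spearman correlation 0.328 across genes) and against length (-0.241), as a description of these libraries.

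Atp6v1g1, the peripheral stalk subunit G in its widespread isoform, was the most abundant V1 transcript per length, at 49.0 ± 4.06 FPKM in treated livers and 32.8 ± 10.6 FPKM in controls (SD, n = 4 each). Its CPM was 51.0, 55.9, 64.8 and 54.5 in treated 1 to 4, against 33.5, 33.9, 25.6 and 54.1 in controls 1 to 4. Control 4 reached the treated level, while the other 3 controls lay well below it. Its log2 fold change of 0.62 (SE 0.21) was not called (edgeR adjusted p = 0.0852). Without control 4 it was 0.87 and was called (edgeR adjusted p = 0.00615), in a fit that called 17.8% of all genes. No other of the 8 fits with one library left out called Atp6v1g1 (edgeR adjusted p up to 0.211). Atp6v1g2, the G isoform known from brain, was near the floor with 0.393 ± 0.0896 FPKM in treated and 0.236 ± 0.0817 FPKM in control livers (SD, n = 4 each). It supplied 0.807 ± 0.229% of the summed FPKM of both G genes in treated and 0.719 ± 0.160% in control livers. Its CPM did not overlap, at 0.789 to 1.25 in treated and 0.377 to 0.735 in control libraries, though its FPKM did (log2 fold change 0.77, SE 0.36, edgeR adjusted p = 0.191). Its exons overlap those of Nfkbil1 on the opposite strand. Nfkbil1 stood at 4.97 ± 1.01 CPM in treated and 2.68 ± 0.673 CPM in control livers. The library kit does not mark strand, so reads from the overlapping part cannot be told apart. Exon overlaps with other genes are annotated for further lysosomal genes too, among them Ctsz, Ctsa, Ctsb, Ctsd, Ctsl and Lamp1, and were not followed up.

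None of the remaining V1 genes was called with all 8 libraries. Atp6v1e1, the second peripheral stalk subunit, held 20.2 ± 0.772 FPKM in treated and 19.4 ± 1.41 FPKM in control livers. The genes of the ATP-hydrolysing head were Atp6v1a, at 10.5 ± 0.655 against 10.9 ± 2.45 FPKM in treated and control livers, and Atp6v1b2, at 8.30 ± 0.606 FPKM in treated and 11.3 ± 2.73 FPKM in control livers. Atp6v1b2 gave a log2 fold change of -0.40 (SE 0.14, edgeR adjusted p = 0.102), and was called without control 4 (adjusted p = 0.0231). No other fit with one library left out called this gene. Atp6v1h, the subunit that links the head to the stalk and regulates it, gave -0.25 (SE 0.11, edgeR adjusted p = 0.165), and 0.05 after correction for length and GC content. Atp6v1d of the rotor and Atp6v1c1 of the stalk gave 6.27 ± 0.522 and 6.14 ± 1.90 FPKM in treated livers, and 6.55 ± 0.901 and 6.91 ± 0.865 FPKM in control livers. The FPKM of all 9 V1 genes summed to 141 to 154 in treated and 107 to 139 in control libraries. Without Atp6v1f and Atp6v1g1 the sums were 52.2 to 60.1 FPKM in treated and 56.5 to 72.9 FPKM in control libraries, so the higher V1 sum came from these 2 short transcripts.

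**Figure D3:**
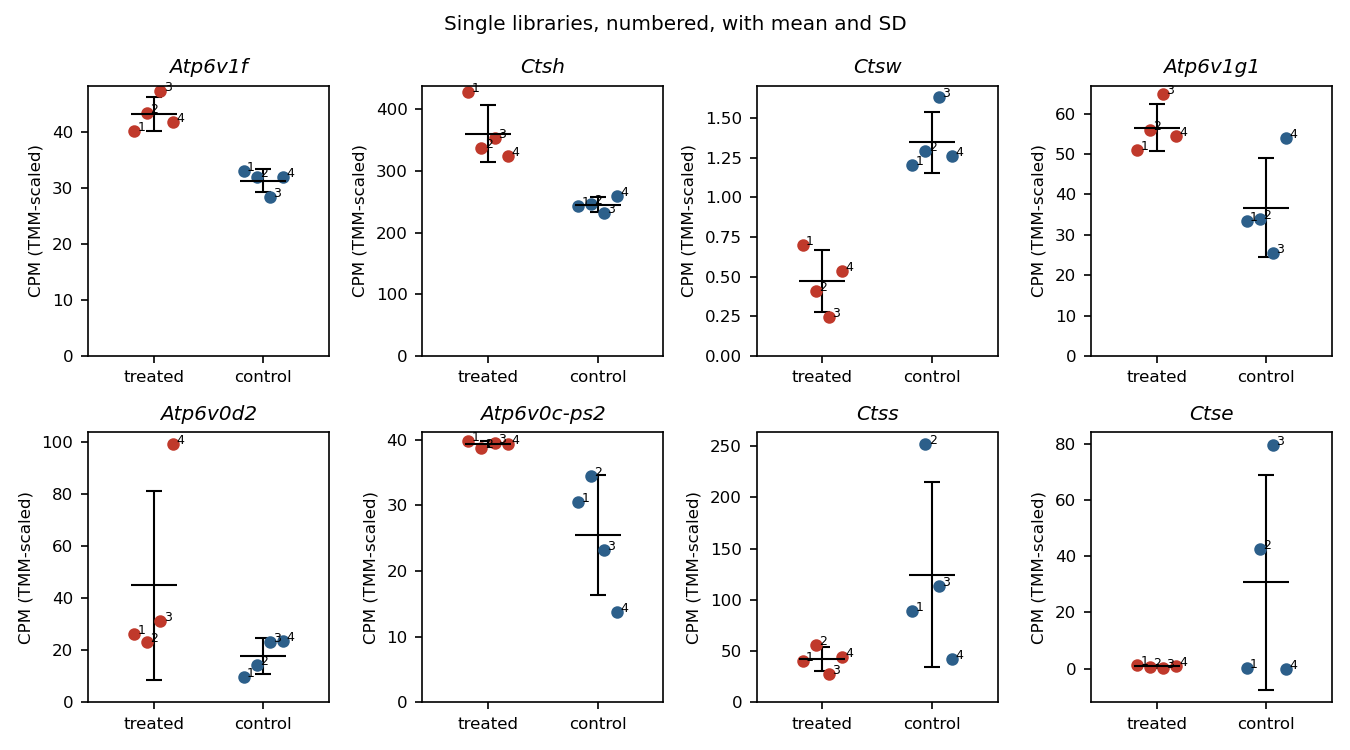
CPM (TMM-scaled) of 8 lysosomal genes in each library, with treated libraries left and control libraries right in each panel, numbered by replicate. The long bar is the mean and the whiskers the SD of 4 libraries. Atp6v1f and Ctsh separate upward and Ctsw downward in treated livers, while Atp6v0d2 is highest in treated 4, Ctse is high in controls 2 and 3 alone, and 3 of the 4 Ctss controls lie above all treated libraries.

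In the V0 domain, which carries the protons, 0 of 9 tested genes were called by edgeR, beside 9.21% of all genes tested. At an unadjusted p under 0.05 stood 4, beside 29.4% of all genes. Of these 4, DESeq2 called Atp6v0d2, and limma-voom called Atp6v0b and Atp6v0c-ps2. Atp6v0d1 and Atp6v0d2 encode alternative forms of subunit d, which couples the rotor to the membrane ring. The widespread form Atp6v0d1 measured 34.5 ± 1.64 FPKM in treated and 39.4 ± 3.74 FPKM in control livers (SD, n = 4 each). Atp6v0d2, known from osteoclasts, macrophages and kidney, measured 26.2, 23.3, 31.3 and 99.3 CPM in treated 1 to 4, against 9.92, 14.6, 23.4 and 23.8 CPM in controls 1 to 4. Treated 4 stood far above all other libraries, and the lowest treated library lay just within the control range. A log2 fold change of 1.33 resulted (SE 0.54, edgeR adjusted p = 0.151), which was 0.59 without treated 4 (adjusted p = 0.253). Of the FPKM of both d forms, Atp6v0d2 made up 23.0, 20.2, 23.4 and 49.96% in treated 1 to 4 and 8.61, 13.0, 19.3 and 16.4% in controls 1 to 4. This share did not overlap between the groups, with means of 29.2 ± 14.0% and 14.3 ± 4.59%. The 17 macrophage markers summed to 393.9, 508.8, 240.0 and 350.5 FPKM in treated 1 to 4, against 571.6, 1092, 595.7 and 339.8 FPKM in controls 1 to 4. The part of macrophages in the Atp6v0d2 values was not tested.

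The c ring carries the uncertain pair. Atp6v0c-ps2 (ENSMUSG00000080242, chromosome 6, 37806086 to 37806550) measured 39.7, 38.7, 39.6 and 39.4 CPM in treated 1 to 4, against 30.5, 34.5, 23.3 and 13.7 CPM in controls 1 to 4. The 4 treated libraries were almost equal and all above the controls in CPM, though not in FPKM, where control 2 reached 82.1 within the treated 79.7 to 86.5. The log2 fold change was 0.63 (SE 0.24, edgeR adjusted p = 0.121). It was -0.14 after correction for length and GC content, where the gene, at 465 bases, is among the short ones. Atp6v0c, its parent, measured 24.0 ± 2.94 CPM in treated and 24.1 ± 3.77 CPM in control livers. The pseudogene took 62.2 ± 2.86% of the reads counted for the pair in treated and 50.2 ± 7.27% in control livers (SD, n = 4 each). How the counting assigned reads that match both is not stated in the sources used here.

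Atp6v0b, the second proteolipid of the ring, gave a log2 fold change of 0.43 (SE 0.15, edgeR adjusted p = 0.102), with 32.7 to 43.7 CPM in treated and 23.9 to 34.9 CPM in control libraries. Among the forms of subunit a, which holds the proton channels and directs the pump to its membrane, Atp6v0a2 gave -0.35 (SE 0.14, edgeR adjusted p = 0.122). Atp6v0b and Atp6v0a2 were both called without control 4, and in no other fit with one library left out. Atp6v0a1 gave 32.9 ± 7.98% of the summed FPKM of all a genes in treated and 31.8 ± 8.73% in control livers, Atp6v0a2 gave 26.0 ± 1.86% and 30.8 ± 4.16%, and Tcirg1, the a3 gene named outside the symbol rule, gave 41.0 ± 7.20% and 37.3 ± 8.63%. Of subunit e, the second gene Atp6v0e2 supplied 7.51 ± 1.45% of the FPKM in treated and 7.94 ± 2.43% in control livers, and Atp6v0e supplied the rest. The 9 V0 genes without the pseudogene summed to 98.4 ± 10.9 FPKM in treated and 92.1 ± 6.60 FPKM in control livers.

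Among the cathepsins 2 of 11 tested genes were called, 1 in each direction, where 9.21% of all genes tested were called. Both are cysteine proteases, as are most of the tested cathepsins. Ctsh (ENSMUSG00000032359, chromosome 9, 90054152 to 90076089) encodes cathepsin H, an aminopeptidase. It measured 428, 337, 353 and 324 CPM in treated 1 to 4, against 242, 247, 231 and 260 CPM in controls 1 to 4. The groups did not overlap, and treated 1 was the highest library. The means were 360 ± 46.4 CPM in treated and 245 ± 11.8 CPM in control livers (SD, n = 4 each), a log2 fold change of 0.56 (SE 0.13, edgeR adjusted p = 0.0326) or 1.47-fold. After correction for length and GC content the log2 fold change of Ctsh was 0.61 (edgeR adjusted p = 0.0450). Of the 8 fits with one library left out, 2 kept the call, those without control 1 or control 4. The adjusted p ran from 0.0234 to 0.0919 over them and the log2 fold change from 0.48 to 0.61. At 78.9 ± 10.8 FPKM in treated and 55.3 ± 4.54 FPKM in control livers, Ctsh stood close to Ctsd in level per length, below Ctsz, Ctsl and Ctsb.

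Ctsw (ENSMUSG00000024910, chromosome 19, 5465043 to 5468507) encodes cathepsin W, a protease of cytotoxic T and NK cells, and was lower in treated livers. It rested on few reads: 14, 7, 4 and 9 in treated 1 to 4, against 20, 25, 26 and 24 in controls 1 to 4. As CPM these were 0.700, 0.411, 0.243 and 0.538 in treated and 1.20, 1.29, 1.63 and 1.26 in control libraries. All treated libraries lay below all controls. It passed the filter, which asked for about 10 reads in 4 libraries, through the controls, since 3 treated libraries had fewer. The log2 fold change was -1.48 (SE 0.38, edgeR adjusted p = 0.0409), and -1.73 after correction for length and GC content (adjusted p = 0.0439). Of the 8 fits with one library left out, 1 kept the call, the fit without control 4 (adjusted p 0.0397 to 0.114 over the 8, log2 fold change -1.73 to -1.27). With no filter the call was lost (edgeR adjusted p = 0.0835), and a stricter filter left the gene out. Its exons overlap those of Fibp on the opposite strand, a gene at 17.01 ± 2.49 CPM in treated and 12.7 ± 3.15 CPM in control livers. Reads from the overlapping part cannot be told apart without strand.

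**Figure D4:**
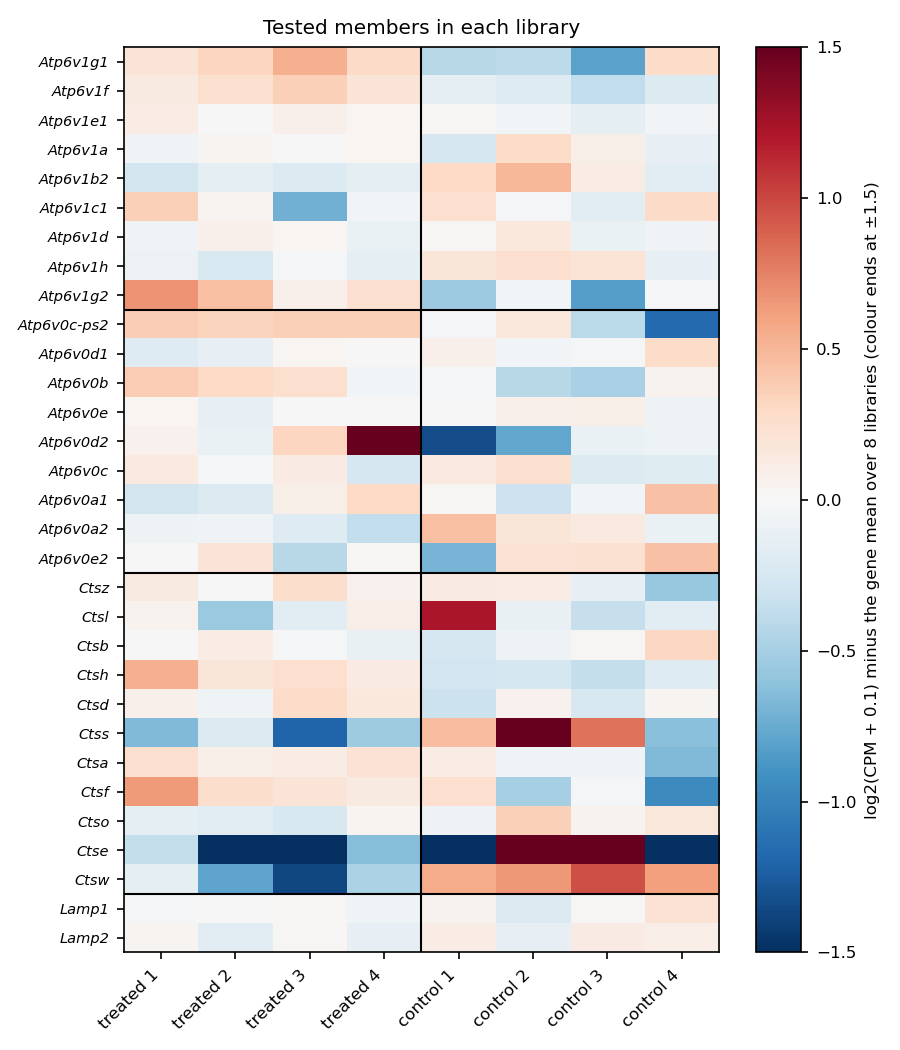
Level of each tested lysosomal gene in each library relative to the gene's own mean, as log2(CPM + 0.1) minus the mean over 8 libraries, with treated libraries left of control libraries and lines between the families. Red is above and blue below the mean, and colour stops at 1.5 in either direction. Dark cells include Atp6v0d2 in treated 4, Ctss in control 2, Ctsw in treated 3, Ctsl in control 1 and Atp6v0c-ps2 in control 4. Ctse is dark in most libraries.

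The most abundant cathepsins were not called. Ctsz, a carboxypeptidase also called cathepsin X, led with 187 ± 8.55 FPKM in treated and 168 ± 38.8 FPKM in control livers (log2 fold change 0.21, SE 0.17, edgeR adjusted p = 0.433), a difference whose sign turned after correction for length and GC content. Ctsl, a broad endopeptidase, measured 799, 524, 685 and 825 CPM in treated 1 to 4, against 1802, 713, 605 and 689 CPM in controls 1 to 4. Control 1 stood alone above the other 7 libraries, and the log2 fold change of -0.43 (SE 0.35, edgeR adjusted p = 0.446) was 0.08 without it. Ctsb, an endopeptidase that also trims dipeptides, measured 114 ± 11.9 FPKM in treated and 119 ± 20.4 FPKM in control livers. Summed over all 14 cathepsins the level was 650 ± 28.5 FPKM in treated and 712 ± 135 FPKM in control livers, and 543 ± 26.1 and 565 ± 129 FPKM without Ctsl. In both sums the control libraries were the more widely spread.

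The aspartic proteases are Ctsd and Ctse. Ctsd, the main aspartic protease of lysosomes, measured 71.0 ± 4.05 FPKM in treated and 63.1 ± 11.6 FPKM in control livers (log2 fold change 0.22, SE 0.14, edgeR adjusted p = 0.297). Ctse, known from stomach and immune cells, measured 1.25, 0.469, 0.364 and 1.02 CPM in treated 1 to 4, against 0.300, 42.6, 79.6 and 0.0525 CPM in controls 1 to 4. It was at or under 1.25 CPM in 6 libraries and far higher in controls 2 and 3, so that controls lay both above and below all the treated libraries. Its log2 fold change of -5.27 (SE 1.89) was not called by edgeR (adjusted p = 0.121), while DESeq2 gave an adjusted p of 0.0102. Limma-voom gave -3.69 (adjusted p = 0.507), and limma on log2(FPKM + 1) and log2(FPKM + 0.1) gave -1.91 and -2.41 (adjusted p = 0.277 and 0.405). Ctsa, a serine carboxypeptidase that also protects the sialidase Neu1, held 22.3 ± 1.37 FPKM in treated and 18.7 ± 4.10 FPKM in control livers. Of the other cysteine cathepsins, Ctsf gave a log2 fold change of 0.56 (SE 0.24, edgeR adjusted p = 0.160), with 23.3 ± 4.28 FPKM in treated and 16.1 ± 5.14 FPKM in control livers. Ctso held 14.1 ± 1.31 FPKM in treated and 17.4 ± 3.33 FPKM in control livers.

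Ctss, the cathepsin of antigen-presenting cells that cuts the MHC class II invariant chain, measured 40.8, 55.7, 28.0 and 44.7 CPM in treated 1 to 4, against 89.5, 252, 114 and 42.0 CPM in controls 1 to 4. Control 2 was far above the rest and control 4 lay within the treated range. The log2 fold change was -1.56 (SE 0.51) and was not called by edgeR (adjusted p = 0.0939), but was called by DESeq2 (adjusted p = 0.00530). It was -0.94 without control 2 (edgeR adjusted p = 0.158). Without control 4 it was -1.84 and called (edgeR adjusted p = 0.0205), the only call in the 8 fits with one library left out. Without controls 2 and 4 together it was -1.26, and called (edgeR adjusted p = 0.0211). Some markers of leukocytes were called lower in treated livers, where 3.75% of all genes tested were. Of 16 tested markers of Kupffer cells and macrophages 3 were called lower (Adgre1, Timd4 and Ccr2), and the list of 17 summed to 240 to 509 FPKM in treated and 340 to 1092 FPKM in control libraries. Of 8 tested markers of dendritic and MHC class II cells 4 were called lower (H2-Aa, H2-Ab1, Cd74 and Itgax), with sums of 41.7 to 63.0 FPKM in treated and 162 to 1438 FPKM in control libraries. Of 6 tested markers of T and NK cells 2 were called lower (Cd3g and Nkg7), with sums of 3.26 to 4.04 FPKM in treated and 4.78 to 20.6 FPKM in control libraries. Without control 2 edgeR called 0, 3 (H2-Aa, H2-Ab1 and Cd74) and 0 genes of these 3 lists, beside 4.49% of all genes. The sums of the other 3 controls were 340 to 596 FPKM for macrophages, 162 to 521 FPKM for MHC class II cells and 4.78 to 9.69 FPKM for T and NK cells. Without control 4 edgeR called 10, 4 and 6 genes of the 3 lists, beside 17.8% of all genes. Control 2 was the highest library for all 3 sums and for Ctss, but control 3 was the highest for Ctsw. No marker of these lists was at 0 in every library. The part of these cells in the values of Ctss and Ctsw was not tested, and in bulk tissue fewer cells of a type and less RNA per cell cannot be told apart. The other marker lists had 0 of 4 neutrophil, 2 of 9 sinusoidal endothelial, 1 of 10 stellate and 0 of 3 cholangiocyte genes called by edgeR, the 3 calls all lower, and 3 of the 4 tested neutrophil genes had a log2 fold change above 0. Unadjusted p-values under 0.05 in edgeR were found for 1 neutrophil, 2 endothelial, 4 stellate and 0 cholangiocyte genes, beside 29.4% of all genes. All of these were lower in treated livers, the neutrophil gene included. For the macrophage, MHC class II and T and NK lists they were found for 10, 7 and 3 genes, all lower. DESeq2 and limma-voom called 0 neutrophil and 0 cholangiocyte genes. DESeq2 called 8 macrophage, 5 MHC class II, 3 T and NK, 2 endothelial and 2 stellate genes, beside 17.2% of all genes. Limma-voom called 7, 4, 3, 2 and 3 of these lists, beside 16.2%. The stellate list summed to 105.8 to 128.3 FPKM in treated and 135.8 to 141.7 FPKM in control libraries, without overlap. The endothelial sums overlapped (53.09 to 90.04 and 80.35 to 102.8 FPKM), as did those of neutrophil (9.038 to 23.4 and 6.245 to 17.45 FPKM) and cholangiocyte genes (7.024 to 19.08 and 10.47 to 15.37 FPKM).

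**Figure D5:**
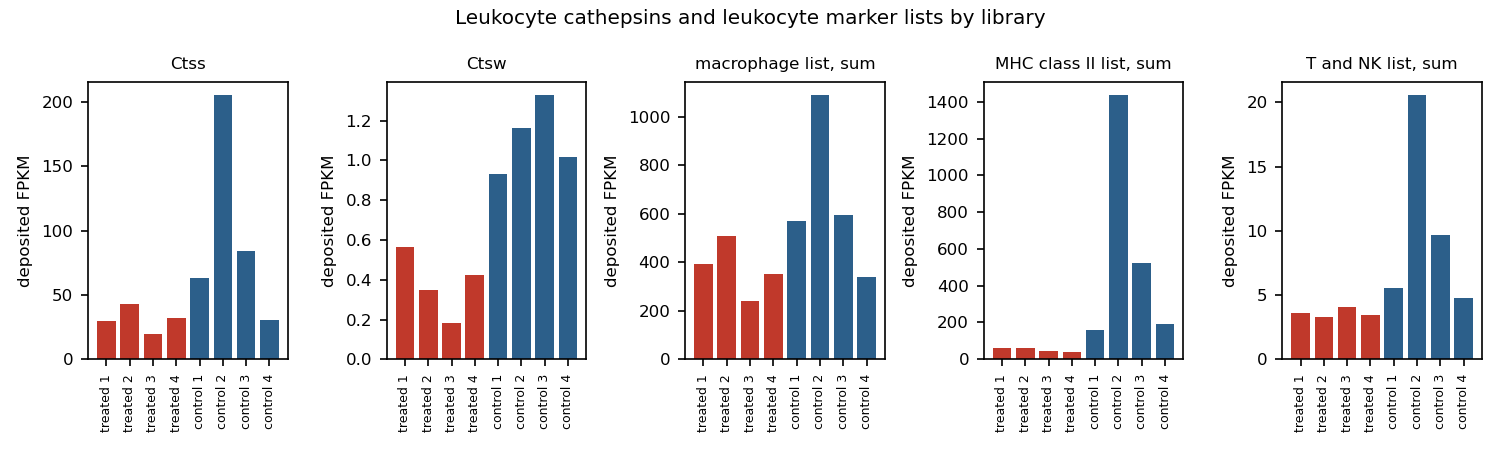
Deposited FPKM of Ctss, of Ctsw and of 3 summed leukocyte marker lists in each library, as bars from 0, with treated 1 to 4 left of controls 1 to 4. Control 2 has the tallest bar for Ctss and for all 3 lists, reaching 1438 FPKM for the MHC class II list, while for Ctsw the tallest is control 3.

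Neither membrane protein gene was called by edgeR, DESeq2 or limma-voom, and neither had an unadjusted p under 0.05. Lamp1 and Lamp2 encode the heavily glycosylated proteins that coat the inner face of the lysosomal membrane, and one form of LAMP2 is the receptor of chaperone-mediated autophagy. Lamp1 was the most abundant of all the genes described here per length, with 213 ± 11.2 FPKM in treated and 226 ± 18.4 FPKM in control livers (SD, n = 4 each). Its log2 fold change was -0.05 (SE 0.14, edgeR adjusted p = 0.858) and 0.02 without control 4. Lamp2 held 96.0 ± 5.62 FPKM in treated and 107 ± 3.62 FPKM in control livers, with a log2 fold change of -0.11 (SE 0.14, edgeR adjusted p = 0.631) that was 0.23 after correction for length and GC content. The table gives one value per gene, so the forms of LAMP2 could not be told apart.

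Other genes of lysosome building and use were read from 7 lists by role. Of 161 listed genes 148 were tested and 12 were called (8.11%), 9 higher and 3 lower in treated livers, against 9.21% of all genes. The median log2 fold change of the 148 was 0.02. Among assembly and accessory factors of the pump 2 of 10 were called, both higher: Ccdc115, an assembly factor (log2 fold change 0.86, SE 0.23, edgeR adjusted p = 0.0444), and Rogdi (0.97, SE 0.24, adjusted p = 0.0372). Among 41 hydrolases other than cathepsins 1 was called, Neu1, the sialidase that works in a complex with the Ctsa product. It averaged 56.9 ± 2.45 CPM in treated and 33.4 ± 9.92 CPM in control livers (log2 fold change 0.77, SE 0.20, edgeR adjusted p = 0.0404). Of 28 other membrane proteins and transporters 1 was called, Laptm5, a lysosomal protein of blood cells, at 19.0 ± 3.53 CPM in treated and 43.8 ± 19.0 CPM in control livers (-1.20, SE 0.28, adjusted p = 0.0338).

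In the delivery of enzymes to lysosomes 2 of 18 genes were called, both higher. Igf2r, the large mannose 6-phosphate receptor, averaged 46.8 ± 2.79 CPM in treated and 34.4 ± 2.43 CPM in control livers (log2 fold change 0.44, SE 0.10, edgeR adjusted p = 0.0281), and Ap1s1, a subunit of the AP-1 coat adaptor, gave 0.57 (SE 0.15, adjusted p = 0.0470). Of 19 regulators and nutrient sensors 3 were called. Rraga, a GTPase that brings mTORC1 to the lysosome, was lower, at 32.2 ± 2.81 CPM in treated and 48.2 ± 2.64 CPM in control livers (-0.58, SE 0.10, edgeR adjusted p = 0.0137), and 7 of the 8 fits with one library left out kept the call. The other 11 calls in these lists were each kept in 1 to 4 of those fits. Lamtor4, a piece of the Ragulator anchor, was higher by 0.86 (SE 0.21, adjusted p = 0.0353) and Flcn, folliculin, by 0.64 (SE 0.14, adjusted p = 0.0249). Tfeb itself, named after its values were seen, averaged 9.88 ± 1.26 CPM in treated and 6.61 ± 0.986 CPM in control livers and was not called (edgeR adjusted p = 0.0575).

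Of 27 core autophagy genes 3 were called. Map1lc3a, which encodes a form of LC3 on autophagosomes, was 2.27-fold higher, at 61.7 ± 13.0 CPM in treated and 27.2 ± 9.16 CPM in control livers (edgeR adjusted p = 0.0254). Atg7, the E1-like enzyme that activates LC3, was higher by 0.59 on the log2 scale (SE 0.12, adjusted p = 0.0216). Pik3c3, the class III lipid kinase, was lower, with a log2 fold change of -0.52 (SE 0.11, adjusted p = 0.0235). Of 5 tested cystatins and stefins, which inhibit cysteine cathepsins, 0 were called by edgeR, DESeq2 or limma-voom and 0 had an unadjusted p under 0.05 in edgeR. The most abundant of that list were Ahsg, at 3996 ± 468 FPKM in treated and 3412 ± 151 FPKM in control livers, and Kng1, at 850 ± 14.0 and 826 ± 91.9 FPKM. After correction for length and GC content 4 of the 12 calls in these lists were kept (Atg7, Igf2r, Laptm5 and Rraga), where 3.69% of all genes were called. The log2 fold change of Map1lc3a was then 0.68, against 1.18 before it, and that of Lamtor4 was 0.55, against 0.86. The other 6 lost calls kept a log2 fold change within 1.5 times of that before it, among them Ccdc115 at 0.91 (edgeR adjusted p = 0.0546) and Flcn at 0.56 (adjusted p = 0.0555). Without control 2 edgeR called 6 of the 148 genes of these lists, beside 4.49% of all genes, and without control 4 it called 25 of 149, beside 17.8%.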

How the data were processed

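Read counts per gene and FPKM were deposited by the authors in one table for 8 libraries. The submitters' processing notes name the build GRCm38 and the tools HTSeq 0.13.5, HISAT2 and DESeq2 1.32.0 without their roles. The annotation release and the strand setting are not stated there. Per the labels' protocols, RNA was taken up in Trizol, poly-A RNA was selected and libraries were made with a NEBNext Ultra RNA kit, which does not mark strand. The deposited FPKM was checked on 22927 genes to equal the count over gene length and library total, within a relative 0.0001. Positions are from GENCODE on GRCm38, matched by 24540 identifiers.

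The members and the gene lists were chosen with earlier results of these data known. Deposited counts were filtered with filterByExpr (minimum count 10, minimum total 15), scaled by TMM (factors 0.937 to 1.108) and tested with edgeR 4.0.16 (quasi-likelihood, robust) in R 4.3.3, treated over control, with Benjamini-Hochberg adjustment over 12861 genes. An adjusted p with no tool beside it is of this test. CPM is TMM-scaled. The correction for length and GC content used offsets from a natural spline with 5 degrees of freedom per library. Alternatives were other scaling factors and filters, non-robust dispersion, DESeq2 1.42.0, limma 3.58.1 (voom with quality weights, and on log2(FPKM + 1) and log2(FPKM + 0.1) at a mean FPKM of at least 0.5 or unfiltered), a replicate block, a threshold of 0.01, and leaving out libraries. The test was tried on simulated counts.

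Named are the called genes with full statistics and, per family, the 2 most abundant uncalled genes and those without overlap of CPM. In the other lists up to 4 called genes, or else the 2 most abundant, are named. Ctss, Ctse, Ctsb, Ctsd, Ctsf, Ctsa, Ctso, Tfeb and the further pump genes were added after their values were seen. No pair of libraries held near-identical counts (chi-square per degree of freedom at least 31.6).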

Additional observations from a re-analysis of the deposited data

Results flagged for a closer look

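3 values stood apart within their group of 4 libraries, by the gap to the nearest other library over the range of the group. In all, 62 groups of 4 values were examined, and chance alone marks about 1 in 20. Atp6v0d2 measured 99.27 CPM in treated 4, against 23.29 to 31.26 CPM in the other treated libraries (gap over range 0.895). Ctsl measured 1802 CPM in control 1, against 605.3 to 712.5 CPM in the other controls (0.910). Lamp2 measured 887.5 CPM in control 2, the lowest of its group, against 1041 to 1057 CPM in the other controls (0.903). In deposited FPKM, which uses other scaling, Lamp2 in control 2 was 102.8, against 105 to 111 in the other controls.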

How the results depend on the processing

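Against 1184 genes called by edgeR in all, DESeq2 called 2215, limma-voom 2088 and limma on log2(FPKM + 1) without a filter 322. The correction for length and GC content gave 475, that correction with the replicate block 427 and a threshold of 0.01 gave 145. Leaving out one library gave 183 to 2330. Of the 1184 calls 59.3% were higher in treated livers, and of those after the correction 69.9%. Against 3 lysosomal genes called, DESeq2 and limma-voom each called 7 (17.2% and 16.2% of all genes), unfiltered FPKM 1, the threshold of 0.01 called 0, and leaving out one library gave 0 to 8, with 8 without control 4 and 0 without treated 2, 3 or 4 or control 3. Without controls 2 and 4 together 3 were called, Atp6v0c-ps2, Atp6v1g1 and Ctss, and 8.07% of all genes. Against 12 genes called in the other lists, DESeq2 called 21, limma-voom 22, limma on FPKM with either pseudocount 7 and unfiltered 1, the correction 4, with the replicate block 4, the threshold of 0.01 called 0, and leaving out one library gave 0 to 25.

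The median log2 fold change of all the lysosomal genes was -0.0630 by library size alone, -0.0648 and -0.0685 on FPKM with a pseudocount of 1 and 0.1, 0.0362 after the correction, 0.0365 with the replicate block added, 0.0337 without controls 2 and 4, and -0.0488 to -0.0152 leaving out one library. The V1 median was 0.172 after the correction, 0.173 with the replicate block added, 0.0819 without controls 2 and 4, and -0.0353 to 0.102 leaving out one library. The V0 median was 0.0222 by limma-voom, -0.130 after the correction, 0.0304 without controls 2 and 4, and -0.0721 to 0.0215 leaving out one library. The cathepsin median was 0.192 with the stricter filter, which leaves out the lower cathepsins, and -0.144 to -0.00571 leaving out one library. The LAMP median was 0.0923 after the correction, 0.0971 with the replicate block added, and -0.132 to -0.0349 leaving out one library.

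Of 451 values under an alternative for the 19 lysosomal genes whose fold changes are printed, 391 kept direction and side of the threshold, 34 lost a call, 16 gained one and 10 changed sign. The changes of sign were, after the correction and with the replicate block added, Atp6v0c-ps2 (-0.141 and -0.0429), Atp6v1h (0.0469 and 0.0462), Lamp2 (0.233 and 0.233) and Ctsz (-0.0977 and -0.0722), and also Lamp1 without control 4 (0.0244, range -0.104 to 0.0244 leaving out one library) and Ctsl without control 1 (0.0840, range -0.593 to 0.0840). Of the other 12 tested genes, given by level alone, 8 changed sign under at least 1 alternative, 6 of them after the correction. The cause was not tested.

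The labels do not state whether replicate numbers pair libraries across the groups. Same-numbered libraries correlated at 0.177, 0.0589, -0.0124 and 0.0697 in their deviations from the group means. Those numbered 1 and 2 correlated best with their own number, which does not decide whether the libraries are paired. With the replicate block 0 lysosomal genes were called, with and without the correction (adjusted p of Atp6v1f 0.0559, Ctsh 0.0602 and Ctsw 0.0781), where the block called 944 of all genes. Depth limits Ctsw and Atp6v1g2, which had 129 and 113 reads over 8 libraries.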
